A study of Mus musculus with 35 samples.

Results

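In whole testis of mice at postnatal day 15, 10 genes were much lower after propylthiouracil (PTU), a drug that blocks the synthesis of thyroid hormone, both in Akt1 wild type and in Akt1 heterozygous animals. They are Tsx, Bbox1, Aqp8, Trpc5os, Dmrtc1b, Ppp2r2c, Slc9a2, Car7, Corin and Kndc1. They were chosen by those day 15 values (the log2 differences with PTU in wild type and heterozygous testis), so their decrease in those groups is given below as a description only. They are 10 of the 44 genes that fell in both genotypes at that age, out of 1462 that fell in wild type (8.75% of tested genes) and 63 in heterozygous testis (0.377%). They are also 10 of the 19938 genes with a probe set of their own on the day 15 array. Ranked by the mean log2 change over both genotypes they take the places 1 to 3 and 5 to 11. Emb, in place 4 with a mean change of -1.90, was not among them. Kndc1 was the last gene inside (-1.31) and Acp7 the next one outside (-1.12).

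The study crossed Akt1 genotype with PTU exposure in male C57BL6 mice and read testis RNA at 2 ages on 2 array types, MoGene 1.0 ST at day 15 and Mouse Genome 430 2.0 at day 25. Each age has 6 groups: wild type, heterozygous and homozygous testes (Akt1+/+, Akt1+/- and Akt1-/-), each unexposed or exposed to PTU. Each group has 3 arrays from 3 mice, except the exposed homozygous group of day 25, which has 2; another array of that group was left out by the authors for its quality. The dose, route and timing of PTU and the design of the Akt1 allele are not given in the sources used here. All values are log2 array intensities on the deposited scale. A difference of 1 is a change by a factor of 2, and levels are compared only within a gene and an age. Day 15 has probe sets for all 10 genes and day 25 for 8, with none annotated to Trpc5os or Dmrtc1b. All 10 and all 8 were bright enough in at least 2 arrays to be tested, though Trpc5os lay above the brightness cutoff in 10 of 18 arrays and Bbox1 in 15.

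Thyroid hormone acts on the young testis chiefly through Sertoli cells, the somatic nurse cells of the seminiferous tubule. It ends their proliferation and drives their maturation, and with too little hormone after birth Sertoli cells divide for longer and mature late. Akt1 is a protein kinase that relays growth and survival signals. The 10 genes are of diverse kinds. Aqp8 is a water channel, Slc9a2 a sodium-proton exchanger and Car7 a cytosolic carbonic anhydrase. Bbox1 makes carnitine from its last precursor, and Corin is a membrane protease that activates the atrial natriuretic peptide. Ppp2r2c is a regulatory subunit of protein phosphatase 2A, and Kndc1 is a Ras exchange factor best known from neurons. Tsx is a testis-expressed X-linked gene near the X inactivation centre, Dmrtc1b an X-linked relative of the Dmrt factors, and Trpc5os lies across from the channel gene Trpc5.

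Since the genes decline together under a drug that removes a nuclear receptor's hormone, the 250 bases before their starts were searched for AGGTCA, the core element that thyroid hormone receptors and other nuclear receptors bind, and for other short motifs. RefSeq's promoter table (GRCm38.p6) holds 12 starts for 9 of the 10 genes. A match on either strand occurs at Tsx, at 1 of the 2 starts of Dmrtc1b and at 1 of the 3 of Car7, that is in 3 of 12 starts, beside 14% of all 32851 starts in the table. Those 3 promoters and that of Bbox1, which has no AGGTCA, are shown with all matches in capitals (TGACCT is AGGTCA on the other strand).
Tsx (chrX:103414217-103414466, + strand): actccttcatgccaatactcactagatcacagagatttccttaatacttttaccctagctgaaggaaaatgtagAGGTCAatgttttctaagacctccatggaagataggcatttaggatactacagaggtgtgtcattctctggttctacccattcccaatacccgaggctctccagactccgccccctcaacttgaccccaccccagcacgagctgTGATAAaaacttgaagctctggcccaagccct
Dmrtc1b (chrX:102710927-102711176, + strand): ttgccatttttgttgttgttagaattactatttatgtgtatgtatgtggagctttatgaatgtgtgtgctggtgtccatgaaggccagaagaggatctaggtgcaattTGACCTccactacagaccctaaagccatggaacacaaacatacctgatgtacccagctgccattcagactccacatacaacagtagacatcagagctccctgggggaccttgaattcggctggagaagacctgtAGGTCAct
Car7 (chr8:104540557-104540806, + strand): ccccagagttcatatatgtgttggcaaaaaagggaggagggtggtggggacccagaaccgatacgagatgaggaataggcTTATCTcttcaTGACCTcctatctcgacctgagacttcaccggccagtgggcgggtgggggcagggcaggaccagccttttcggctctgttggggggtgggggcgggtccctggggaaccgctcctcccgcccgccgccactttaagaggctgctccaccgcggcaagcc
Bbox1 (chr2:110305726-110305975, - strand): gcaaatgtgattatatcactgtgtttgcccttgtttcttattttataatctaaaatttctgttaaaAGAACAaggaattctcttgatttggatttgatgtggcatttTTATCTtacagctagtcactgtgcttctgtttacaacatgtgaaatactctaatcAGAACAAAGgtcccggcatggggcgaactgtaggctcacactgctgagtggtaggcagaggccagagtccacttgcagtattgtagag
In Tsx, AGGTCA begins 176 bases before the start and TGATAA, which GATA factors bind, 32 bases before it. Dmrtc1b has AGGTCA 8 bases before this start and again, on the other strand, 142 bases before it. In Car7 the element lies 159 bases before the start, beside another motif of GATA factors, AGATAA on the other strand, at 170. Bbox1 instead holds AGAACA, the androgen receptor core, at 184 and 88 bases, the second overlapping ACAAAG, the SOX core in another form, and AGATAA on the other strand at 143.

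Among the 12 starts of the 9 genes, AGAACA was found at 1 (16.1% of all starts in the table) and ACAAAG at 1 (16.5%). AGATAA was found at 2 (9.99%), TGATAA at 1 (7.94%) and CACGTG, an E-box, at 1, that of Aqp8 (6.02%). AACAAT (the SOX core, 9.42% of all starts), TGACGTCA (the cAMP response element, 1.55%) and ACATTGT (the core for DMRT factors, 2.56%) were found at 0. These are letter matches and not measured binding. By position, Tsx, Trpc5os and Dmrtc1b lie on the X chromosome, 3 of 10 genes, beside 3.35% of the tested genes with a known chromosome. Dmrtc1b and Tsx are 693.8 kb apart, and Trpc5os lies 41031.3 kb beyond Tsx. Tsx (chromosome X, 103409012 to 103424588) overlaps Chic1, and Trpc5os (chromosome X, 144455876 to 144477063) overlaps Trpc5. The sources used here do not say which strand the probes read, so signal of such partners cannot be told apart from the sequence tables alone.

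Some arrays carry signs of other tissue, and the day 15 arrays fall into 2 sets of unstated origin, which bears on what follows. Akt1 itself does not check the genotype labels: without PTU its level was 9.34 to 9.71 in the wild type group and 9.04 to 9.40 in the homozygous group at day 15, and 9.38 to 9.55 and 9.28 to 9.46 at day 25. The sources used here do not say whether the probes lie in the deleted part, so homozygous below means labelled homozygous. Spink8, an epididymal gene, was above 7 at day 15 in unexposed wild type arrays 2 and 3 and exposed homozygous array 2, and at day 25 in exposed wild type array 3, exposed heterozygous array 2 and both exposed homozygous arrays. At day 15 the unnamed bright probe sets split the arrays into 2 sets. All wild type arrays are in the first set, and the second holds 6 arrays of heterozygous and homozygous groups. Differences from wild type at that age can therefore not be fully told apart from the array set. In whole-testis RNA, fewer cells of a type and less RNA per cell cannot be told apart.

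In wild type testis at day 15 all 10 genes were lower with PTU, and no exposed array reached the level of an unexposed one. The log2 differences, which chose the genes, run from -1.49 for Kndc1 to -3.08 for Trpc5os, with a median of -1.90 against 0.03 over all tested genes. In heterozygous testis they run from -1.13 for Kndc1 to -2.37 for Bbox1, with a median of -1.54, again with no overlap of arrays for 10 of 10 genes. Among all genes 18.7% were lower without overlap in wild type and 8.62% in heterozygous testis, and nothing is read from the members' counts, since the rule used these contrasts.

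**Figure D1:**
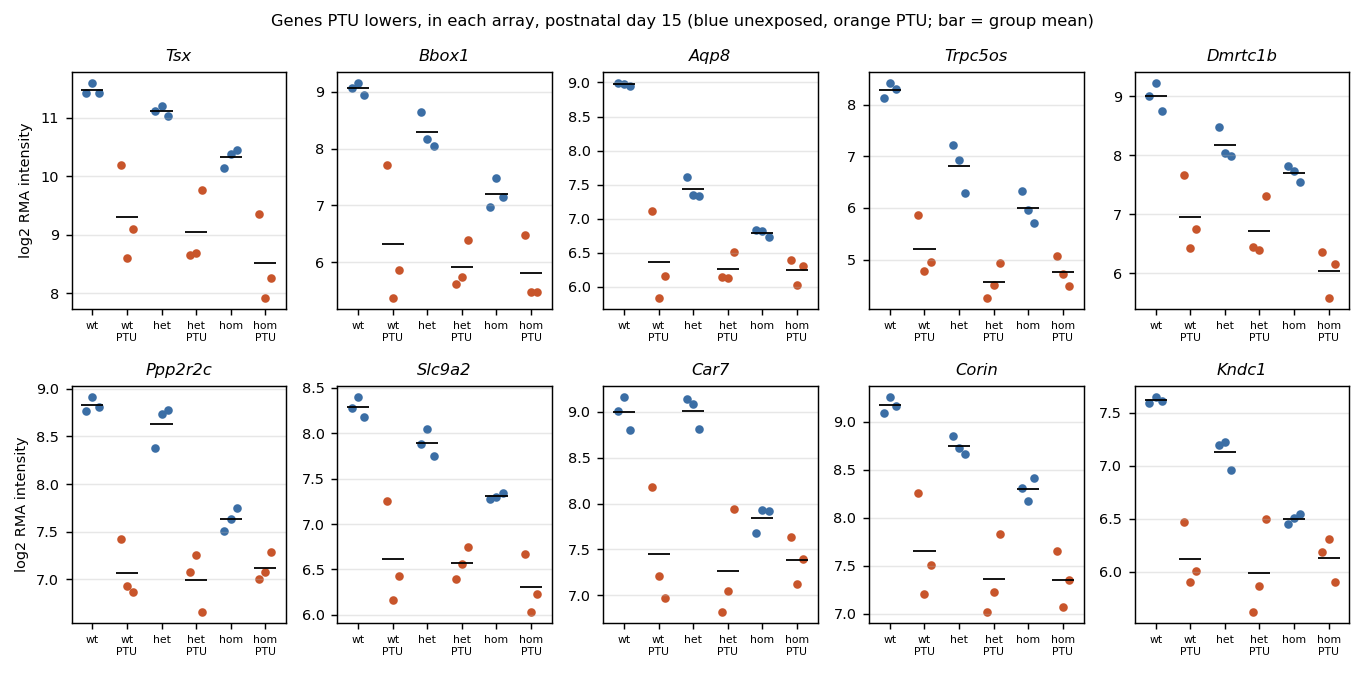
Log2 intensity of each of the 10 genes in every day 15 array, by group (wt wild type, het heterozygous, hom homozygous; blue unexposed, orange PTU; bars are group means, n = 3). Unexposed levels step down from wild type to homozygous for 9 of 10 genes, and the exposed groups lie close together at the bottom.

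Of the transport and pH genes, the water channel Aqp8 had the clearest step between genotypes. In wild type testis its log2 level was 9.0, 8.98 and 8.94 unexposed and 7.12, 5.84 and 6.16 exposed. In heterozygous testis it was 7.61, 7.36 and 7.34 unexposed and 6.14, 6.13 and 6.52 exposed. In homozygous testis it was 6.83, 6.82 and 6.73 unexposed and 6.39, 6.03 and 6.31 exposed. All 3 unexposed homozygous arrays thus lay below exposed wild type array 1, and the exposed groups of the 3 genotypes overlapped. The differences with PTU were -2.60 ± 0.22 (SE) in wild type, -1.17 ± 0.22 in heterozygous and -0.55 ± 0.22 in homozygous testis.

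The exchanger Slc9a2 ranged from 8.18 to 8.40 in unexposed and from 6.17 to 7.26 in exposed wild type arrays. Its difference was -1.67 ± 0.21 there, -1.33 ± 0.21 in heterozygous and -1.0 ± 0.21 in homozygous testis. Across the 3 genotypes every one of its 9 exposed arrays was below every one of its 9 unexposed arrays, as was true of Ppp2r2c. The carbonic anhydrase Car7 is the exception to the step by genotype: unexposed wild type and heterozygous testis had means of 8.99 and 9.01 log2, while unexposed homozygous arrays ranged from 7.67 to 7.92. Its difference with PTU was -1.54 ± 0.27, -1.75 ± 0.27 and -0.45 ± 0.27 in the order wild type, heterozygous, homozygous.

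The carnitine enzyme Bbox1 in wild type testis stood at 9.07, 9.16 and 8.94 unexposed and 7.72, 5.37 and 5.87 exposed. In heterozygous testis it was 8.65, 8.16 and 8.04 unexposed and 5.61, 5.73 and 6.39 exposed. In homozygous testis it was 6.97, 7.48 and 7.15 unexposed and 6.48, 5.47 and 5.48 exposed. Exposed wild type array 1 stood above the unexposed homozygous arrays, which shows how wide the exposed groups were. The protease Corin ranged from 9.09 to 9.26 in unexposed wild type, 8.66 to 8.85 in unexposed heterozygous and 8.18 to 8.41 in unexposed homozygous arrays. Its exposed arrays ranged from 7.02 to 8.26 over the 3 genotypes.

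The signalling genes behaved less alike. The phosphatase subunit Ppp2r2c was 8.76, 8.92 and 8.80 in unexposed wild type and 8.38, 8.73 and 8.78 in unexposed heterozygous arrays, which overlapped. Unexposed homozygous arrays, at 7.51, 7.64 and 7.75, lay below both. Exposed arrays were 7.42, 6.93 and 6.87 in wild type, 7.08, 7.25 and 6.66 in heterozygous and 7.01, 7.08 and 7.29 in homozygous testis. The 3 exposed means of Ppp2r2c lay within 0.13 log2 of each other, against 1.20 for the unexposed means. The exchange factor Kndc1 ranged from 7.60 to 7.65 in unexposed wild type and from 6.45 to 6.54 in unexposed homozygous arrays, with 5.62 to 6.49 over all exposed arrays.

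Of the 3 X-linked genes, Tsx and Dmrtc1b had the largest changes of the 10 in homozygous testis. In wild type testis Tsx was 11.41, 11.60 and 11.43 unexposed and 10.20, 8.60 and 9.10 exposed. In heterozygous testis it was 11.11, 11.20 and 11.04 unexposed and 8.66, 8.70 and 9.77 exposed. In homozygous testis it was 10.14, 10.38 and 10.45 unexposed and 9.36, 7.93 and 8.26 exposed. Each genotype thus had 1 exposed array well above its other two. Trpc5os in wild type testis was 8.13, 8.43 and 8.30 unexposed and 5.86, 4.78 and 4.95 exposed. In homozygous testis it was 6.34, 5.95 and 5.72 unexposed and 5.08, 4.72 and 4.48 exposed, and part of these values lie below the brightness cutoff. Dmrtc1b in wild type testis was 9.01, 9.23 and 8.75 unexposed and 7.67, 6.42 and 6.74 exposed. In homozygous testis it was 7.81, 7.73 and 7.55 unexposed and 6.37, 5.58 and 6.15 exposed. Dmrtc1b was the only gene of the 10 whose exposed homozygous arrays all lay below the exposed wild type arrays, and it has close copies beside it on the X chromosome whose RNA its probes may also bind.

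Across genotypes the unexposed levels spread and the exposed levels converged, as did those of the pachytene genes of spermatocytes, read further below. Exposed values lay partly below the brightness cutoff of 5.56 in Trpc5os (4.26 to 5.86) and Bbox1 (5.37 to 7.72). In the other genes all were above it, with the lowest at 5.58 for Dmrtc1b. How far a floor narrowed the exposed levels was not tested. The unexposed mean was in the order wild type, heterozygous, homozygous for 9 of 10 genes. Unexposed homozygous arrays lay below all unexposed wild type arrays for 10 of 10 genes, where 20.7% of all genes did so, and the difference had a median of -1.18 against 0.08 over all genes. It ran from -0.87 for Corin to -2.28 for Trpc5os. Among exposed testes 1 gene, Dmrtc1b, had no overlap (13.4% of all genes), and the same difference had a median of -0.30 and ran from -0.91 for Dmrtc1b to 0.05 for Ppp2r2c. For Aqp8 the 3 genotype means spanned 2.18 log2 unexposed and 0.13 exposed. The unexposed wild type arrays chose the genes, so these genotype differences are given without a test.

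Of the 6 group means, unexposed wild type was the highest for 9 genes and unexposed heterozygous for 1, Car7. Exposed homozygous testis was the lowest for 6 and exposed heterozygous testis for 4. The spread between arrays of a group was small without PTU and wide with it. The median standard deviation over the 10 genes was 0.10 in unexposed wild type and 0.61 in exposed wild type testis. It was 0.16 and 0.42 in heterozygous and 0.13 and 0.30 in homozygous testis. The same arrays led each time: exposed wild type array 1 was the highest of its group for 10 of 10 genes, exposed heterozygous array 3 for 9 and exposed homozygous array 1 for 8.

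PTU in homozygous testis at day 15 compares 6 arrays that the choice of genes did not use, so it is the test at this age. Its standard errors and p-values draw on the spread of all 18 day 15 arrays, which include those that chose the genes. All 10 genes were lower in value with no overlap of arrays (11.4% of all genes). At an adjusted p below 0.05, 5 of 10 fell, where 4.37% of all tested genes fell and 0.586% rose. These were Dmrtc1b (-1.66 ± 0.29, adjusted p = 0.0079), Tsx (-1.81 ± 0.37, adjusted p = 0.0111), Slc9a2 (-1.0 ± 0.21, adjusted p = 0.0122), Trpc5os (-1.24 ± 0.27, adjusted p = 0.0158) and Corin (-0.94 ± 0.22, adjusted p = 0.0226). The median over the 10 was -0.97, against 0.01 over all genes. Bbox1 (-1.39 ± 0.42, adjusted p = 0.0656) and Ppp2r2c (-0.51 ± 0.16, adjusted p = 0.0756) did not pass. Neither did Aqp8 (-0.55 ± 0.22, adjusted p = 0.148), Kndc1 (-0.37 ± 0.18, adjusted p = 0.233) and Car7 (-0.45 ± 0.27, adjusted p = 0.34). For Car7 the 95% interval of the difference ran from -1.03 to 0.12, and for Aqp8 from -1.01 to -0.09.

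The calls rest on few arrays. Without unexposed homozygous array 1 or 2 the count was 1 in each case, and without exposed homozygous array 2, which carries Spink8, it was 0. The changes themselves moved less: without that array Tsx differed by -1.51, Dmrtc1b by -1.44, Trpc5os by -1.22, Slc9a2 by -0.86 and Corin by -0.80, with adjusted p from 0.0541 to 0.126. With all 3 arrays of the age that carry Spink8 left out, the count was also 0. A fit on the 6 homozygous arrays alone called 0 of 10, and it called 0 of all genes, with 2695 genes at an unadjusted p below 0.05. Within the first array set (2 unexposed and 1 exposed array) it was 0, with Tsx at -0.91 and Dmrtc1b at -1.41. Within the second set (1 and 2) it was 2, Tsx at -2.35 and Bbox1 at -1.67.

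The interaction of PTU with the homozygous genotype, the amount by which the homozygous change is less negative than the wild type change, was above 0 for 10 of 10 genes at day 15. It ran from 0.37 ± 0.52 for Tsx to 2.05 ± 0.31 for Aqp8, with Trpc5os at 1.84 ± 0.38 and Bbox1 at 1.35 ± 0.59. It includes the wild type arrays that chose the genes, which favours this direction, and no test is given. A floor under low exposed values would also favour this direction, and its part was not tested. In heterozygous testis it ran from -0.21 ± 0.39 for Car7 to 1.43 ± 0.31 for Aqp8.

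**Figure D2:**
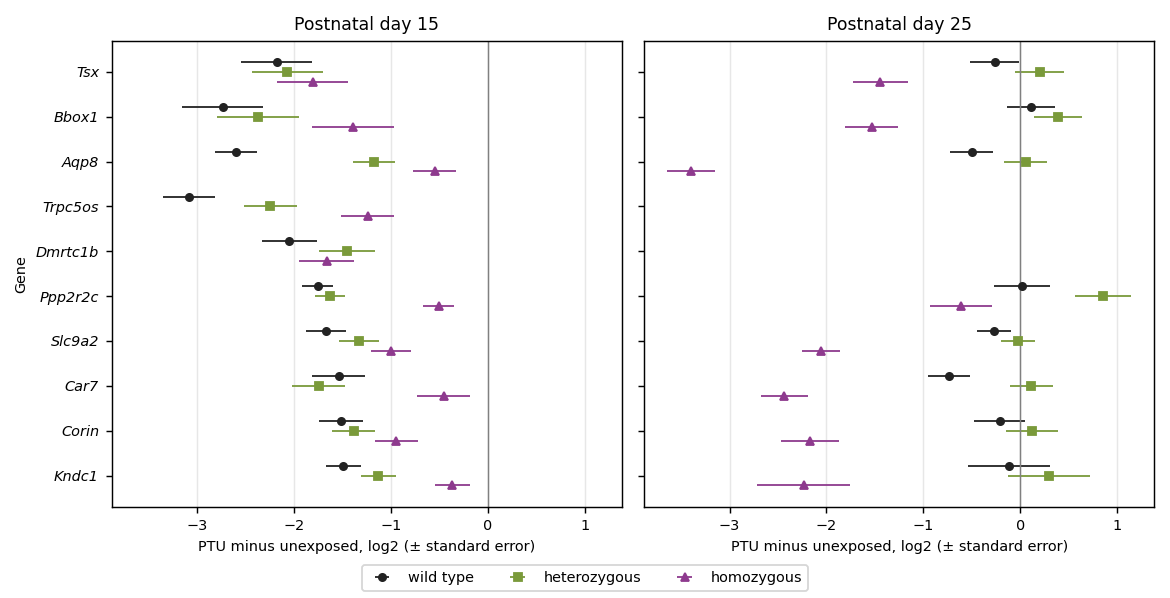
Log2 difference between PTU and unexposed testis for each gene, in wild type, heterozygous and homozygous mice at day 15 and day 25 (bars are ± 1 standard error from limma). At day 15 homozygous values are the nearest to 0 for 9 of 10 genes, and at day 25 the homozygous values of 7 of 8 genes, all but Ppp2r2c (-0.61), lie below every wild type and heterozygous value.

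The other genes of each member's family or pathway mostly did not pass in homozygous testis at day 15. Among 11 other genes of carnitine synthesis and transport, 1 fell: Cpt1a, the gate for fatty acids into mitochondria (-0.68 ± 0.12, adjusted p = 0.00853). Among 14 other carbonic anhydrases 1 fell, the mitochondrial Car5b (-1.13 ± 0.23, adjusted p = 0.0119). Among 8 other Dmrt genes 1 fell, Dmrtc1a (-0.83 ± 0.18, adjusted p = 0.016), which is the close copy of Dmrtc1b. Of 12 Ras and Rap exchange factors Sos2 (-0.60 ± 0.14, adjusted p = 0.023) and Sos1 (-0.58 ± 0.14, adjusted p = 0.0245) fell. None of 9 other aquaporins, 11 sodium-proton exchangers and their cofactors, 14 subunits of phosphatase 2A, 8 genes of the natriuretic peptide system, 4 Trpc channels or 3 neighbours of Tsx passed, and 0 genes of these 10 lists rose. Chic1, which overlaps Tsx, differed by -0.07 ± 0.15 (adjusted p = 0.81) where Tsx fell.

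Of 14 genes of thyroid hormone action 2 fell in homozygous testis at day 15. They were Klf9, a direct target of the thyroid hormone receptor (-1.18 ± 0.24, adjusted p = 0.0122), and Thrb, a receptor itself (-0.50 ± 0.11, adjusted p = 0.0177). Of 10 genes of mature Sertoli cells 5 fell and 0 rose, with a list median of -0.46. Ctsl, a protease (-0.45 ± 0.09, adjusted p = 0.0132), and Espn, an actin bundler of Sertoli junctions (-0.57 ± 0.13, adjusted p = 0.0168), had the smallest p. Shbg, the androgen binding protein, fell by the most (-1.12 ± 0.27, adjusted p = 0.0235). Of 10 genes of Sertoli identity and 8 of immature Sertoli cells, 0 passed. Of 10 macrophage genes 3 fell, among them Mrc1 (-0.88 ± 0.17, adjusted p = 0.00918) and Cd163 (-0.34 ± 0.08, adjusted p = 0.0243). Of 7 Leydig cell genes 2 rose, Hsd17b3 (1.53 ± 0.29, adjusted p = 0.00869) and Akr1c14 (0.88 ± 0.18, adjusted p = 0.0122), and 1 fell, Hsd3b6 (-2.47 ± 0.64, adjusted p = 0.0346). The lists differed in part with PTU in wild type testis. There 2 of the 14 genes of thyroid hormone action rose and 0 fell. Of the Sertoli identity genes 4 of 10 rose (median 0.29), and of the immature Sertoli genes 3 of 8 (median 0.28). Mature Sertoli genes fell for 2 of 10, macrophage genes for 6 of 10.

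Germ cell genes were read beside the 10 genes. The mean log2 level of 15 pachytene genes, which mark spermatocytes, in wild type testis was 9.74 to 10.18 unexposed and 7.80 to 8.82 exposed, and 12 of 15 fell there (median -1.95). In heterozygous testis it was 8.38 to 8.97 unexposed and 7.25 to 8.56 exposed, and 0 passed. In homozygous testis it was 6.64 to 7.60 unexposed and 7.36 to 8.53 exposed, and 0 passed, with a median of 0.94. There the 10 genes were lower with PTU while the pachytene median was above 0. In wild type testis the 10 genes and the pachytene list were both lower with PTU. Group means of the pachytene list were 9.95, 8.74 and 7.07 unexposed, in the order wild type, heterozygous, homozygous. Exposed they were 8.16, 8.02 and 8.06 in that order. The step down without PTU and the narrow exposed range were thus shared with the 10 genes. The part of germ cell number in these values was not tested.

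**Figure D3:**
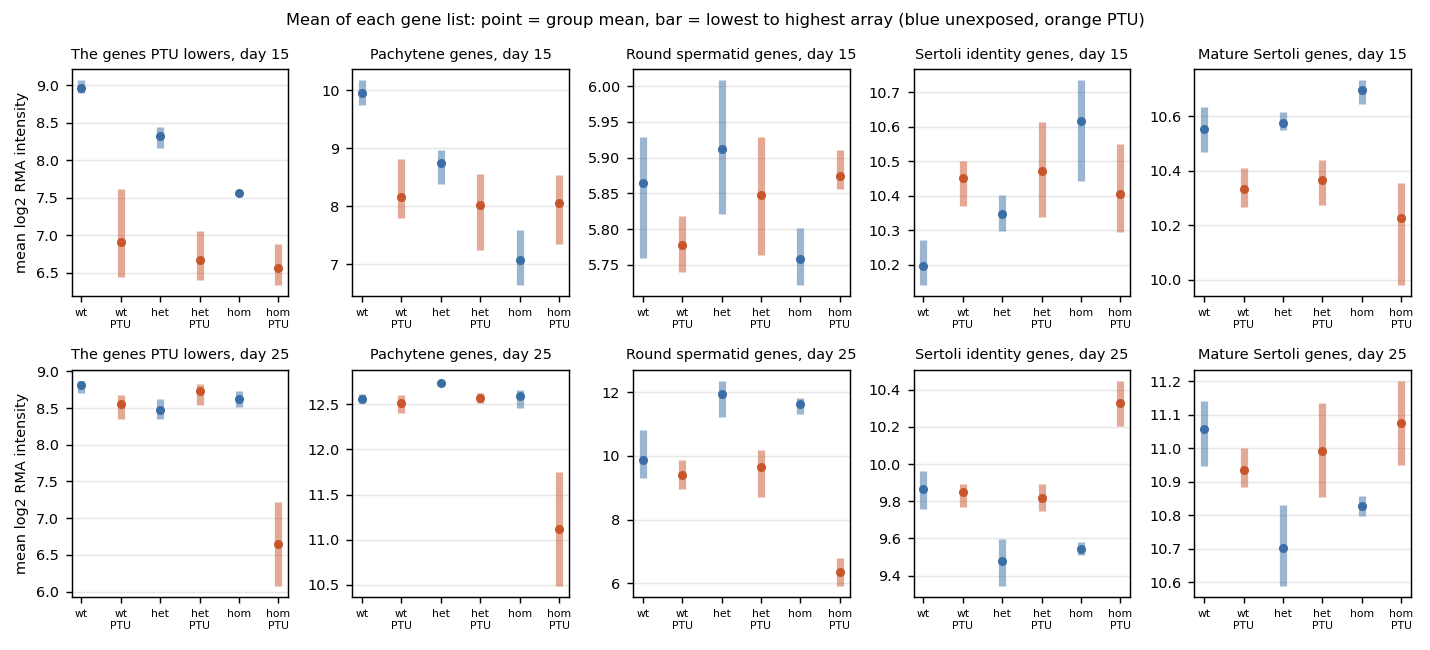
Mean log2 level of the genes PTU lowers and of 4 marker lists in each group (points are group means, bars run from the lowest to the highest array; blue unexposed, orange PTU; upper row day 15, lower row day 25). At day 15 both the genes PTU lowers and the pachytene genes step down from wild type to homozygous without PTU, and both are lower with PTU in wild type testis. In homozygous testis at day 15 the genes PTU lowers are below the unexposed level with PTU while the pachytene genes are not.

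Within groups at day 15 the genes varied together over the pooled arrays, except Ppp2r2c. The exposed arrays weigh most in this, with median standard deviations of 0.30 to 0.61 against 0.10 to 0.16 in unexposed groups. Unexposed groups were not correlated by themselves. Over the 18 day 15 arrays, each centred on its group mean, the correlation of 2 genes had a median of 0.79 over 45 pairs, as a description of arrays that share their hybridisation. Without Ppp2r2c the 36 pairs ranged from 0.63 to 0.94. The pairs of Ppp2r2c ranged from -0.19 to 0.31. On the 17 day 25 arrays 21 pairs without Ppp2r2c ranged from 0.35 to 0.93, and its own 7 pairs from -0.22 to 0.31, but this split rests on the 2 exposed homozygous arrays, whose median standard deviation over the 8 genes was 0.80 against 0.16 to 0.22 in the other groups. Without them, on 15 arrays, the ranges overlapped, at -0.28 to 0.82 and -0.41 to 0.62. Ppp2r2c thus followed the group means at day 15 but not the arrays that stood high in the exposed heterozygous and homozygous groups. In exposed wild type testis array 1 was its highest, at 7.42 against 6.93 and 6.87, as it was for the other genes.

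The 5 genes outside the set whose levels over the 18 day 15 arrays were the most like the mean of the 10, by Pearson correlation, were Emb (0.98), Txk (0.97), Rnf144b (0.96), Hsd3b6 (0.96) and Plppr5 (0.96). Emb encodes a membrane partner of lactate transporters and Hsd3b6 an enzyme of steroid synthesis found in adult Leydig cells. Each of the 5 also fell in homozygous testis, with Emb at -1.64 (adjusted p = 0.00971) and Rnf144b at -0.50 (adjusted p = 0.00728), although the choice by likeness over all arrays favours this. Of the 34 other genes that fell in wild type and heterozygous testis at day 15, 21 fell in homozygous testis as well, with a median of -0.50.

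At day 25 no PTU difference passed in wild type or heterozygous testis for the 8 genes that could be read. In wild type testis 0 of 8 passed in limma, as did 0% of all genes in either direction, and 2 of 8 had an unadjusted p below 0.05, Aqp8 and Car7. Over the 8 genes the adjusted p ran from 0.77 to 0.998. Tsx in wild type testis was 11.43, 10.98 and 11.21 unexposed and 11.03, 10.88 and 10.91 exposed, a difference of -0.26 ± 0.25 (95% interval -0.80 to 0.28). Bbox1 was 8.01, 7.73 and 7.89 unexposed and 7.96, 8.03 and 7.98 exposed (0.11 ± 0.25, interval -0.41 to 0.64). Both groups overlapped in both genes. Aqp8 was 9.68, 9.25 and 9.55 unexposed and 9.26, 9.02 and 8.70 exposed (-0.50 ± 0.22, interval -0.98 to -0.03). Car7 was the only one of the 8 whose exposed arrays, 8.74, 8.48 and 7.96, all lay below the unexposed ones, 9.03, 8.98 and 9.37 (-0.74 ± 0.22, adjusted p = 0.77), where 8.5% of all genes did. The ages were measured on different arrays, so the difference between them was not tested.

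In heterozygous testis at day 25 0 of 8 passed in limma, where 7.2% of all genes fell and 11.5% rose, and 1 had an unadjusted p below 0.05. That was Ppp2r2c, at 6.87, 6.12 and 5.81 in unexposed and 6.89, 7.61 and 6.87 in exposed arrays (0.86 ± 0.29, adjusted p = 0.0512). It passed under 3 alternatives: a stricter brightness filter (adjusted p = 0.0457), quantile normalization (adjusted p = 0.048) and leaving out unexposed array 1 (1.16, adjusted p = 0.00997). Over its 16 alternatives the adjusted p ran from 0.00997 to 0.226. Tsx, Bbox1 and Kndc1 were higher with PTU with no overlap of arrays, 3 of 8 genes, where 26.5% of all genes were, by 0.20, 0.39 and 0.30 log2. Leaving out exposed heterozygous array 2, the one with Spink8 at 10.07, called 0 as well.

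In homozygous testis at day 25 7 of 8 genes fell with PTU, where 32.8% of all genes fell and 38.4% rose, so most genes on these arrays had moved. With the poly-A control mean, a measure of labelling, as a covariate, 3 of the 7 still fell, Aqp8, Slc9a2 and Car7. The largest change was that of Aqp8, at 9.40, 9.41 and 8.85 in unexposed and 6.23 and 5.41 in exposed arrays. It fell by 3.40 on the log2 scale (SE 0.25, adjusted p = 1.32e-07), a factor of 10.5. Car7 was 9.15, 8.91 and 8.80 unexposed and 6.76 and 6.28 exposed (-2.44 ± 0.25, adjusted p = 8.89e-07). Its other probe sets, with means of 7.83 and 7.36 unexposed and 6.12 and 5.25 exposed, moved the same way. Slc9a2 was 7.57, 7.55 and 7.38 unexposed and 5.74 and 5.14 exposed (-2.06 ± 0.20, adjusted p = 6.16e-07). In Aqp8, Car7 and Slc9a2 both exposed arrays lay more than 1 log2 below every unexposed one.

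In the other genes the 2 exposed homozygous arrays differed widely. Kndc1 was 8.21, 8.18 and 8.34 unexposed and 7.40 and 4.62 exposed (-2.24 ± 0.48, adjusted p = 0.000651), and 2 dim probe sets of it moved from 6.01 to 5.65 and from 5.83 to 5.58. Corin was 9.74, 9.90 and 9.68 unexposed and 8.40 and 6.82 exposed (-2.17 ± 0.30, adjusted p = 1.39e-05). Bbox1 was 7.80, 7.75 and 7.52 unexposed and 6.90 and 5.42 exposed (-1.53 ± 0.27, adjusted p = 0.000148). Tsx was 10.86, 10.91 and 10.44 unexposed and 10.01 and 8.57 exposed (-1.45 ± 0.28, adjusted p = 0.000322). In all 4 genes exposed array 2 was the lower by more than 1 log2. Ppp2r2c was 7.16, 6.40 and 7.15 unexposed and 6.26 and 6.32 exposed (-0.61 ± 0.32, adjusted p = 0.101), and it passed without unexposed array 2 (-0.86, adjusted p = 0.0306). Array 2 was the lower for 7 of 8 genes, all but Ppp2r2c.

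**Figure D4:**
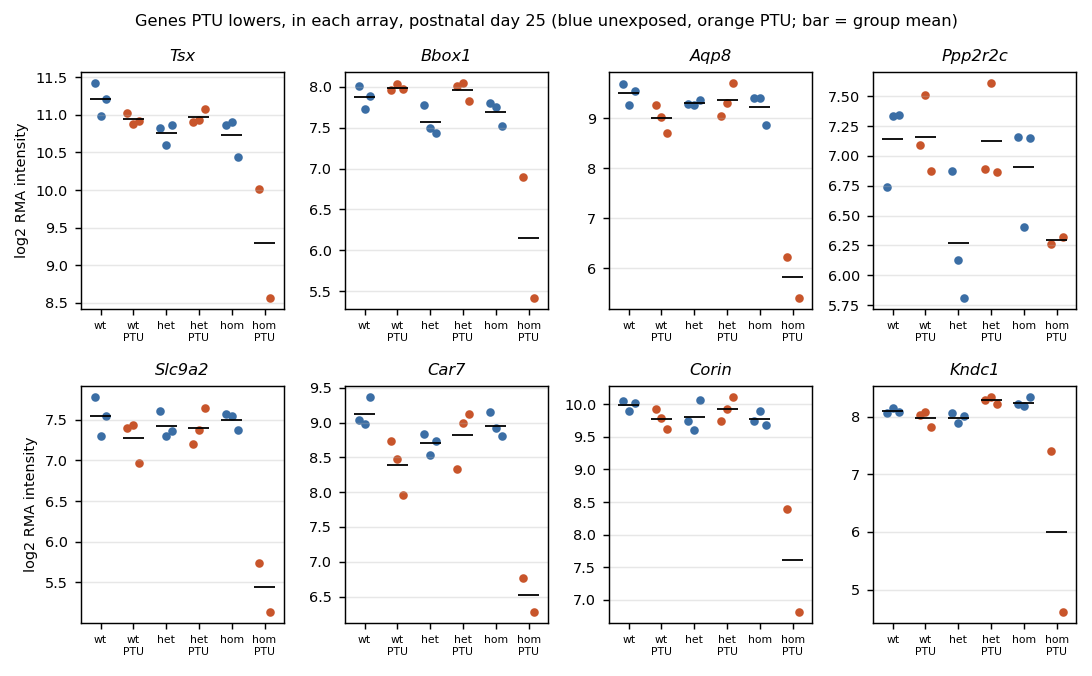
Log2 intensity of the 8 genes with a probe set on the day 25 array, in every array by group (wt wild type, het heterozygous, hom homozygous; blue unexposed, orange PTU; bars are group means, n = 3, and 2 for exposed homozygous testis). For 7 genes both exposed homozygous arrays lie below every other array, while for Ppp2r2c they lie among the lower arrays of other groups.

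The difference between genotypes in the response was tested at day 25. The interaction of PTU with the homozygous genotype, the homozygous change minus the wild type change, passed for 7 of 8 genes and was negative in each, where 26.3% of all genes had a negative one that passed. It ran from -1.18 ± 0.38 for Tsx (adjusted p = 0.0147) to -2.90 ± 0.33 for Aqp8 (adjusted p = 2.25e-05), with Ppp2r2c at -0.63 ± 0.43 (adjusted p = 0.219). With the poly-A covariate 2 of the 7 passed, Aqp8 and Slc9a2. With the heterozygous genotype it passed for 0 of 8 genes in limma and 0% of all genes, with 1 of 8 at an unadjusted p below 0.05. Averaged over the genotypes 6 of 8 fell, where 27.6% of all genes did, and with the poly-A covariate 2 did, Aqp8 and Car7. Exposed homozygous testis was lower than exposed wild type for 8 of 8 genes, where 28.4% of all genes were, with Aqp8 at -3.17 ± 0.25 (adjusted p = 8.6e-07). With the 3 prime minus 5 prime signal of beta-actin, a measure of RNA quality, as a covariate, Aqp8 alone of the 8 passed (-2.16 ± 0.395, adjusted p = 0.0167). The contrasts share these 2 arrays, so their counts do not add to each other.

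Without PTU few differences between genotypes passed at day 25. Of the 8 genes 0 passed between unexposed homozygous and wild type testis in limma, where 7.32% of all genes were lower and 5.35% higher, and 0 had an unadjusted p below 0.05. By the brightest probe set of each gene, Tsx had the largest difference, -0.47 ± 0.25 (adjusted p = 0.239), and the median was -0.20. The probe sets of Car7 disagreed. Its brightest one differed by -0.17 and another by -0.09. A further one differed by -0.86 and passed in limma when every probe set was tested (adjusted p = 0.0255). Between unexposed heterozygous and wild type testis 1 of 8 was lower, where 14.3% of all genes were. That was Ppp2r2c (-0.87 ± 0.29, adjusted p = 0.0427), whose call was lost without any 1 of 4 arrays. Between exposed heterozygous and wild type testis 0 of 8 passed in limma, where 0.0675% of all genes were lower and 0.0245% higher, and 0 had an unadjusted p below 0.05.

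The 2 exposed homozygous arrays of day 25 stand apart in much more than these genes. Spink8 was at 12.92 and 12.75, against 5.74 to 10.07 in the other 15 arrays, and the mean of 7 epididymal genes at 6.56 and 6.67, against 4.81 to 5.86. Of the round spermatid genes 12 of 12 fell (median -5.98), and of the pachytene genes 15 of 15 (median -1.11). Of 10 Sertoli identity genes 9 rose (median 0.87) and of 8 immature Sertoli genes 7 rose (median 1.39), while the mature Sertoli list had 6 rises and 1 fall. Of the spermatogonial genes 10 of 11 rose and 1 fell (median 1.14), and of the early meiotic genes 10 of 15 rose and 3 fell (median 0.68). The germ cell lists thus went both ways on the arrays where the 7 genes fell. In exposed heterozygous testis 11 of 12 round spermatid genes fell (median -1.75) and 0 of the 8 genes did. The poly-A control mean was 7.73 and 8.96 in the exposed and 5.83 to 6.65 in the unexposed homozygous arrays. Its part and that of other tissue in the result was not tested.

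Family members moved in both directions on these arrays, as most genes did. Of 11 other aquaporins 7 fell, led by Aqp7 (-4.82 ± 0.38, adjusted p = 1.97e-07) and Aqp11 (-3.25 ± 0.39, adjusted p = 4.32e-06), and Aqp1 rose (1.76 ± 0.19, adjusted p = 1.68e-06). Of 11 other carnitine genes 6 fell and 2 rose, among them the carnitine transporter Slc22a16 (-2.40 ± 0.31, adjusted p = 6.6e-06) and Crot (1.5 ± 0.14, adjusted p = 5.03e-07). Of 7 other sodium-proton exchangers 4 fell, with Slc9a5 at -1.48 ± 0.16 (adjusted p = 1.65e-06). Of 13 other carbonic anhydrases 4 fell and 4 rose, among them Car3, a gene of fat and muscle (4.17 ± 1.18, adjusted p = 0.00544). Of 15 subunits of phosphatase 2A 6 fell and 7 rose, and of 13 exchange factors 5 fell and 5 rose. Chic1, the gene that overlaps Tsx, rose (1.24 ± 0.14, adjusted p = 2.16e-06) where Tsx fell. The 5 genes most like the mean of the 8 over the 17 day 25 arrays were Drd4 (0.97), Zdhhc12 (0.97), Apip (0.97), Cdkn2c (0.97) and 1700110I01Rik (0.97), a likeness computed with the 2 low arrays included.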

How the data were processed

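RNA of whole testis was measured in 18 arrays at postnatal day 15 and 17 at day 25. The authors deposited log2 intensities made with RMA, a joint background correction, normalization and summary of probes, per the submitters' processing notes; no version is stated. They entered the fits unchanged (2.19 to 14.9 log2 at day 15, 2.81 to 15.1 at day 25). RMA adjusts all arrays of an age to one distribution, so values are relative within an array.

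Probe sets with 1 symbol entered, 21789 of 35556 at day 15 and 34958 of 45101 at day 25, and a gene was represented by its brightest one. To be tested, a gene had to exceed the 25th percentile of all values at its age in at least 2 arrays: 16710 of 19938 at day 15 and 16305 of 18194 at day 25. Each age was fitted by itself on its 6 group means in R 4.3.3 with limma 3.58.1 (lmFit, contrasts.fit, eBayes). P-values were Benjamini-Hochberg adjusted over all tested genes, with a threshold of 0.05. Errors are limma's moderated standard errors. All groups of an age share 1 estimate of the spread.

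The genes and lists were chosen with earlier results of these data known. Beside them the text names list genes that passed, smallest p first, the marker genes with the smallest p (Shbg, Cd163 and Hsd3b6 were named after their values were seen), and the 5 genes most alike. Counts of lists leave out the genes described here. The number of arrays limits the precision. The fit was tested on simulated data.

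The alternatives comprised dropping the filter, raising it to the 50th percentile, all probe sets singly, quantile normalization, array weights, the groups compared alone, a replicate block, array set, Spink8, poly-A and beta-actin terms, and each array left out. The fits within an array set, the day 25 fit without arrays with Spink8 above 7 and the day 25 correlations without exposed homozygous arrays were added after seeing the data. The sample numbers are given no meaning by the labels. For PTU in wild type at day 25 all 3 same-number correlations of residuals (0.23 to 0.40) exceeded 0.1. There the numbers were taken as a possible pairing, which such correlations cannot establish. The values given above for that comparison are from the fit without pairing. For the other comparisons checked, the correlations did not all exceed 0.1.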

Additional observations from a re-analysis of the deposited data

Results flagged for a closer look

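The response to PTU differed between homozygous and wild type testis at day 25, by the interaction test, for 7 of 8 genes, where 26.3% of all genes had a negative interaction that passed. With the poly-A control mean as a covariate 2 of the 7 passed, Aqp8 and Slc9a2. The log2 difference of the homozygous minus the wild type change was -2.90 for Aqp8, -2.12 for Kndc1, -1.95 for Corin, -1.79 for Slc9a2, -1.70 for Car7, -1.65 for Bbox1 and -1.18 for Tsx. All 7 rest on the same 2 exposed homozygous arrays, which stand apart in Spink8 and in most genes, and that part was not tested.

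In heterozygous testis 3 genes had every exposed array below every unexposed one at day 15, which chose them, and every exposed array above at day 25. That is 3 of 8 genes at day 25, where 26.5% of all genes were higher without overlap, so the count is near the background. The day 25 differences were 0.39 for Bbox1, 0.30 for Kndc1 and 0.20 for Tsx on the log2 scale, and 0 of the 3 passed in limma (adjusted p = 0.292, 0.67 and 0.624). The ages use different array types, so the difference between the ages was not tested.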

How the results depend on the processing

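Of 538 values of single genes under the alternatives, 494 stayed on their side of the threshold, 36 lost a call, 8 gained one and 0 reversed a call. A change of direction was not counted where neither fit passed. For PTU in homozygous testis at day 15, where 5 genes were called, the groups compared alone, the fit without arrays with Spink8 above 7 and the fit within the first array set each gave 0, and the second array set gave 2. Leaving out 1 array gave 0 to 6. At day 25 the poly-A covariate lowered PTU in homozygous testis from 7 to 3, the averaged effect from 6 to 2 and the homozygous interaction from 7 to 2. It also lowered heterozygous minus wild type, unexposed, from 1 to 0, as the sample number as replicate block did. The beta-actin covariate lowered homozygous minus wild type, exposed, from 8 to 1. PTU in heterozygous testis rose from 0 to 1 with the 50th percentile filter and quantile normalization. Homozygous minus wild type, unexposed, rose from 0 to 1 with every probe set, with array weights and without arrays with Spink8 above 7. The heterozygous interaction rose from 0 to 1 with array weights, and heterozygous minus wild type, unexposed, from 1 to 2 without arrays with Spink8 above 7. Leaving out 1 array gave 0 to 1 for PTU in heterozygous testis and for heterozygous minus wild type, unexposed. The causes were not tested. The exposed homozygous arrays of day 25 all carry Spink8, so no fit without them exists for contrasts that use exposed homozygous testis.

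The replicate block, fitted on the sample numbers, gave 6 for PTU in homozygous testis at day 15, with same-number correlations of -0.21 to -0.25, and 7 for the averaged effect at day 25. For PTU in wild type at day 25, the one comparison with a possible pairing by number, the fit with this block gave 0. Apart from the heterozygous minus wild type contrast the block took no count to another side.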
